A study of Medicago truncatula with 15 samples.

Results

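The 200 loci described here are those whose transcripts were most confined to the shoot apex rather than the leaf in wild-type (WT) *Medicago truncatula*, the barrel medic used as a model legume. They were chosen from the TPM (transcript levels corrected for length and library size) that the authors gave for each group. TPM were summed by locus, the 10604 of 50021 loci with at least 10 TPM in the WT apex were kept, and the 200 with the lowest ratio of WT leaf to WT apex, after adding 1 TPM to each, were taken. Their higher level in the WT apex than in the WT leaf is therefore the rule itself and not a result.

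RNA was sequenced from 15 libraries, 3 for each of 5 groups. Triple mutant apices came from 83-day-old plants that had not flowered and in which *MtSOC1a*, *MtSOC1b* and *MtSOC1c* had been edited with CRISPR-Cas9 in the R108 background; the sample labels call them Mtsoc1-4. *Mtsoc1a* apices and leaves came from 15-day-old plants with a *Tnt1* retrotransposon in *MtSOC1a*, and WT apices and leaves from unedited R108 plants of 15 days. All plants had 3 weeks of cold and 16 h days at 22 °C, and were harvested 4 h after dawn. An apex library pooled tissue from 3 plants, and a leaf library pooled fully expanded trifoliate leaves from 2 plants. The sources differ on how much stem came with the apex: the labels give the upper stem for the triple mutant, whereas the study's methods give it for the 15-day-old plants and name only apices for the triple mutant. The study describes the preparation of the triple libraries apart from that of the 15-day-old apex libraries. Genotype, age and any difference in tissue, library preparation or sequencing cannot be told apart. The 3 triple libraries were the only ones of 83-day-old plants. No triple mutant leaf was sampled.

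The shoot apex carries the shoot apical meristem, the group of stem cells that forms leaves and stem during vegetative growth and inflorescences and flowers after the floral transition. It also holds leaf primordia, boundary cells and the elongating young stem, so a transcript present in the tip and absent from a mature leaf may belong to any of these. *SOC1* encodes a MADS-domain transcription factor that in Arabidopsis promotes the floral transition by joining signals from several flowering pathways. In such bulk tissue, fewer cells of a type and less RNA per cell cannot be told apart.

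Library totals were 13224488 to 15891830 estimated counts in triple apices and 30574845 to 38896407 in the 12 libraries of 15-day-old plants, so counting error was larger for weak transcripts in the triple mutant. *MtSOC1a* lay at 20.8 to 23.9 CPM (counts scaled to a common library size) in triple apices, at 0.516 to 1.01 CPM in *Mtsoc1a* apices and at 13.5 to 19.01 CPM in WT apices, which bears out the *Mtsoc1a* label and is no check of coding edits. The 4 shoot-apex regulators HDL, WOX9, LFY and TFL1c summed to 5.40 to 8.10 CPM in triple apices (3 of 4 detected, HDL at 0), to 12.7 to 20.1 CPM in *Mtsoc1a* apices and to 9.57 to 16.8 CPM in WT apices, and all 4 were at 0 in the 6 leaf libraries. HDL was near the floor in all apices, with 4, 14 and 7 counts in WT and 0, 3 and 6 counts in *Mtsoc1a* libraries. Its 0 counts in the smaller triple libraries cannot be told from such a level. WOX9, LFY and TFL1c were each lower in triple than in *Mtsoc1a* apices without overlap. Against WT apices only LFY did so (1.04 to 2.28 against 2.90 to 4.00 CPM), while WOX9 and TFL1c overlapped. The study counts LFY among inflorescence identity genes and reports it reduced in the triple mutant, so the sum is no neutral measure of apex tissue. None of the 4 regulators was among the 200. TFL1c came nearest, at 16.7 TPM in the WT apex, 0 TPM in the WT leaf and rank 440, and the other 3 had too few TPM for the rule. With 1 TPM added, a locus at 0 TPM in leaf ranks by its apex level alone. No member had less than 32.6 TPM in the WT apex, so the absence of TFL1c is no sign of weaker confinement to the apex. Of 7 floral organ and floral meristem genes, AP1 reached 2.57 and 3.28 CPM in WT apex replicates 1 and 3 but 0.374 CPM in replicate 2, at most 0.0503 CPM in triple apices and 0 in *Mtsoc1a* apices. Summed, those 7 genes were lower in apices (0.995 to 1.81 CPM triple, 0.835 to 1.64 CPM *Mtsoc1a*, 1.23 to 4.70 CPM WT) than in leaves (22.9 to 34.7 CPM *Mtsoc1a*, 28.2 to 44.4 CPM WT), which goes against use of the sum as a flower marker in these leaves. SEP3a, AGa, AP3a and SHP were higher in every leaf library than in any apex library, and AP1 overlapped between leaves and WT apices. PI and SEP3b went the other way, with at most 0.0396 and 0.0465 CPM in leaves. In WT apices PI had 0.598, 0 and 0.140 CPM and SEP3b 0.405, 0.242 and 0.398 CPM.

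The members spanned 32.6 to 2889 TPM in the WT apex, with a median of 111.5 TPM, and 0 to 68.7 TPM in the WT leaf, with a median of 0.577 TPM. The lowest ratio belonged to Medtr1g084780, at 895 TPM in the WT apex and 0.0828 TPM in the WT leaf, followed by Medtr7g099670 at 1090 and 0.774 TPM. The most abundant by TPM in the WT apex was Medtr8g014650 (2889 TPM), ahead of Medtr8g070770 (2790 TPM). At the edge of the list, Medtr5g008010 was the last one in, with a ratio of 0.0301, and Medtr8g081530 the first one out, with 0.0303, so no gap in the values separates the list from the loci that follow it. With 0.1 TPM added in place of 1, which favours loci absent from leaf over abundant ones, 126 of the 200 would still have been taken.

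Beyond the rule, the members shared few features that the files could show. By their identifiers, which carry the chromosome number of the Mt4.0 gene models, they lay on all 8 chromosomes, and 19% lay on chromosome 4 and 16% on chromosome 7, against 17.3% and 12.4% of the 10604 loci. A single transcript model was listed for 181 of them and 2 or more for 19. Counts per TPM, a quantity that rises with transcript length, had a median in the members that was 0.473 of that in the other loci at 10 TPM or more, so the members were short transcripts. In 17 pairs, involving 34 members, both identifiers lay within 50 numbers of each other on one chromosome. Reads of near-identical neighbouring copies may have been split between them during quantification, and the similarity of these copies was not examined. The reference gene table matched 0 of the identifiers, so a function is given only for the few members that the study itself annotates.

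Every one of the 200 was detected in all 9 apex libraries. Summed over the members, the level was 22486, 23704 and 22211 CPM in triple apices, 17855, 18483 and 19282 CPM in *Mtsoc1a* apices and 20156, 26267 and 22475 CPM in WT apices. The triple libraries therefore lay above all 3 *Mtsoc1a* libraries and within the range of the WT libraries. The *Mtsoc1a* libraries lay under all 3 WT libraries. In leaves the same sum was 421 to 539 CPM in *Mtsoc1a* and 321 to 488 CPM in WT. As a share of all counts, the members took 2.82 to 3.06% in triple apices, 2.48 to 2.72% in *Mtsoc1a* apices and 2.80 to 3.54% in WT apices.

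**Figure D1:**
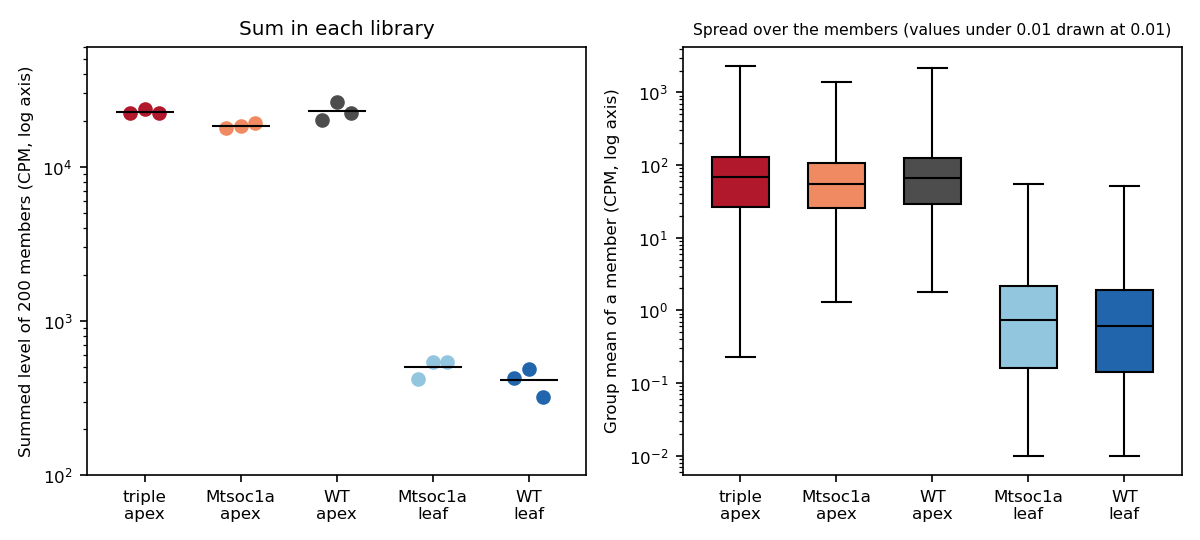
Left, summed level of the 200 members in each of 15 libraries, in CPM on a log axis, with bars at the group means. Right, group mean CPM of each member on a log axis, as boxes from the lower to the upper quartile with a line at the median and whiskers to the lowest and highest member. The 9 apex libraries sit between 17855 and 26267 CPM and the 6 leaf libraries between 321 and 539 CPM.

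*Mtsoc1a* apices against *Mtsoc1a* leaves asked whether the list held in plants that the rule did not use. All 200 members were higher in the apex and 0 lower, at an edgeR quasi-likelihood adjusted p of at most 0.05 and at least 2-fold, where 26.2% of the 23024 loci tested were higher and 22.1% lower. The median log2 fold change was 5.96 in the members and 0.10 over all loci tested. DESeq2 called 196 of the 200 higher and 0 lower. The smallest difference was that of Medtr1g104610 (log2 2.19, SE 0.59, adjusted p = 0.0073), which had 44.1, 69.6 and 103 CPM in *Mtsoc1a* apices and 3.35, 19 and 22.2 CPM in *Mtsoc1a* leaves. For 22 members no count was seen in any *Mtsoc1a* leaf library, and against a floor of 3 counts over those libraries their apex levels were at least 29.6-fold to at least 4740-fold higher. With these members at their bounds, the median was 5.90.

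For most of the list, *Mtsoc1a* apices lay slightly under WT apices. None of the 200 was called higher or lower, where 0.155% of 22555 loci were called higher and 0.0709% lower, and DESeq2 also called 0. An unadjusted p under 0.05 was found for 50 members, 48 of them lower in *Mtsoc1a*, where 2740 of the 22555 loci had one, 1313 of them lower. The median log2 fold change was -0.19 in the members and -0.01 over all loci tested. A positive value was found for 34 of the 200 members and for 11011 of the 22555 loci. The *Mtsoc1a* libraries lay entirely below the WT libraries for 37 members and entirely above for 2. Over the 22555 loci these counts were 2046 and 1751. Since the WT apex libraries gave the high values that chose the members, a lower level in another apex group is the side on which that choice places them. For 173 of the 200 the 95% interval of the difference lay within 2-fold in both directions. It did so for a larger share, 9600 of 10404, of the other loci at 10 TPM or more in the WT apex.

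Without the 2-fold limit, 2 members passed the adjusted p, where 0.124% of all loci tested were lower, and both were lower in *Mtsoc1a*. Medtr2g081590 had 104, 98.3 and 95.3 CPM in *Mtsoc1a* apices, against 144, 162 and 149 CPM in WT apices (log2 -0.60, SE 0.09, adjusted p = 0.0202). Medtr4g028180 had 48.5, 44.3 and 45.4 CPM in *Mtsoc1a* apices, against 72.7, 59.2 and 81.1 CPM in WT apices (log2 -0.61, SE 0.11, adjusted p = 0.0371). The groups did not overlap for either locus.

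Triple mutant apices against *Mtsoc1a* apices is the comparison of mutants in which neither group had been used to choose the members. In it, 11 members were higher and 14 lower, where 3.72% of the 22555 loci tested were called higher and 8.8% lower. These are 5.5% and 7% of the list. Among the other loci at 10 TPM or more in the WT apex, 1.65% were higher and 5.63% lower. The median log2 fold change was 0.31 in the members and -0.01 over all loci tested, and 139 of 200 had a positive value. At the adjusted p with no limit on the fold, 83 members were higher and 27 lower, where 15.3% and 16% of all loci tested were. The 3 triple libraries lay entirely above the 3 *Mtsoc1a* libraries for 108 members and entirely below for 39, where 25.2% and 24.4% of all loci tested did so. A difference within 2-fold in both directions over its whole 95% interval was found for 131 members. It was found for a larger share, 8425 of 10404, of the other loci at 10 TPM or more in the WT apex.

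Triple mutant apices against WT apices gave 7 members higher and 19 lower, where 2.26% of all loci tested were higher and 6.4% lower. These are 3.5% and 9.5% of the list, and 0.721% and 5.32% of the other loci at 10 TPM or more in the WT apex. At the adjusted p with no limit on the fold, 57 were higher and 32 lower, where 11.5% and 12.4% of all loci tested were. The median log2 fold change was 0.08 in the members and -0.02 over all loci. For 71 members the triple libraries lay entirely above the WT libraries and for 45 entirely below, where the shares of all loci were 20.6% and 22%. This comparison uses the same triple libraries as the one before it, and its WT libraries chose the members, so the values of both are given side by side below and their likeness is no separate evidence. In neither of the comparisons with the triple mutant were 169 of the 200 members called. Of all loci tested, 8.66% were called in either direction against WT and 12.5% against *Mtsoc1a*. The share of all loci called in neither was not counted, so the 169 are not read as a trait of the list.

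**Figure D2:**
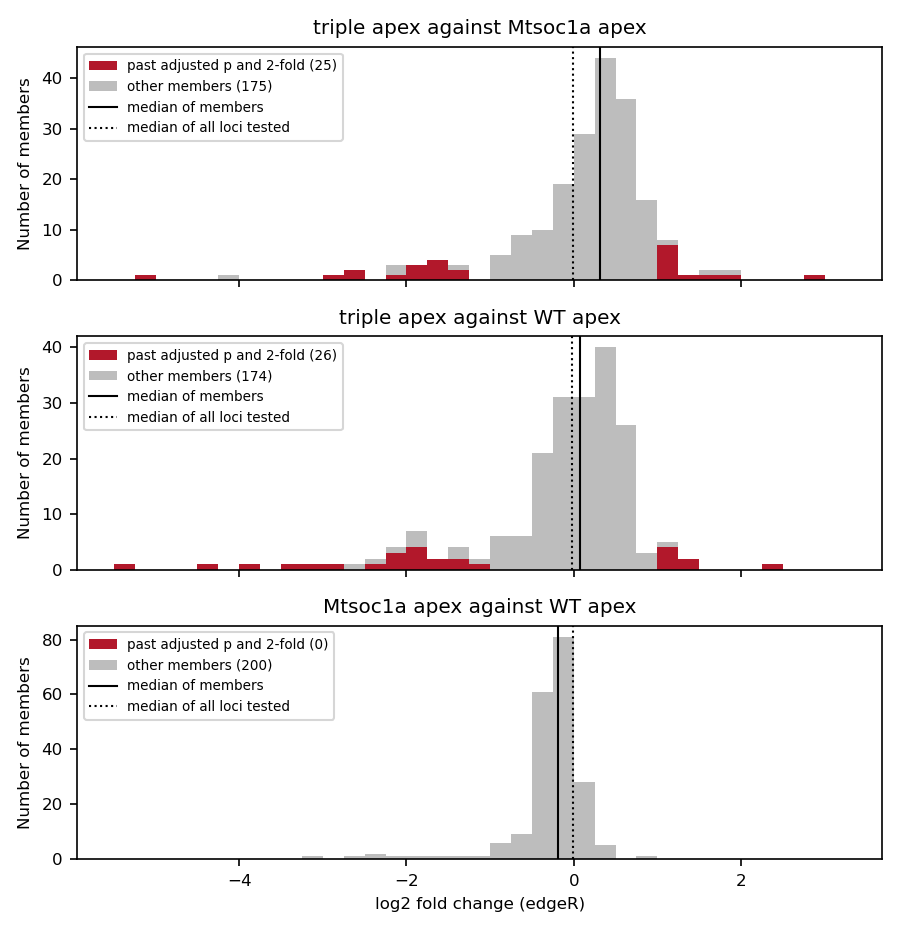
Number of members by log2 fold change, in bins of 0.25, for triple apex against Mtsoc1a apex, triple apex against WT apex, and Mtsoc1a apex against WT apex. Members past the adjusted p and 2-fold limits are drawn in red (25, 26 and 0), and the solid and dotted lines are the medians of the members and of all loci tested. The bulk of the list sits within 2-fold of no change, with a tail to the left in the comparisons with the triple mutant.

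Set against *Mtsoc1a* leaves, which were not used to choose the members, the lowest triple library stood above the highest leaf library for 197 of the 200, where it did for 39.8% of the 22555 loci. The lowest *Mtsoc1a* apex library did so for 200, where the share was 39.6% of 23024 loci. The 3 exceptions were Medtr5g078215, Medtr8g091590 and Medtr1g104610. In the authors' TPM, 196 of the 200 were at 10 TPM or more in the triple apex and 197 in the *Mtsoc1a* apex, and the medians over the list were 109 TPM in the triple apex, 96.2 TPM in the *Mtsoc1a* apex and 111.5 TPM in the WT apex. The mean level in the apex was at least 10 times that in *Mtsoc1a* leaves for 192 members in the triple mutant and for 197 in *Mtsoc1a*, where 10.6% and 11% of the 22555 loci reached this. Medtr1g084780, which had the lowest ratio under the rule, was among the 197. It had 69.6, 73.6 and 55.8 CPM in triple apices, 76.3, 65.4 and 65.5 CPM in *Mtsoc1a* apices and 72.4, 72.1 and 85.1 CPM in WT apices, and the groups overlapped (triple against *Mtsoc1a* log2 -0.07, 95% interval -0.32 to 0.18).

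Among the members lower in triple than in *Mtsoc1a* apices, Medtr5g078215 had the largest fold. It had 0.302, 0.293 and 0.0991 CPM in triple apices, against 5.19, 6.92 and 12.6 CPM in *Mtsoc1a* apices and 4.23, 5.96 and 3.30 CPM in WT apices. The triple libraries were far under all other apices. Of the leaf libraries the highest had 0.136 CPM, above triple replicate 3 and under triple replicates 1 and 2, and the triple mean was 5.1 times that of *Mtsoc1a* leaves. The difference was -5.16 on the log2 scale from *Mtsoc1a* (SE 0.48, adjusted p = 4.23e-05) and -4.28 from WT (SE 0.49, adjusted p = 0.000221). By counts, the triple libraries held 6, 5 and 2 of this transcript.

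Medtr8g091590 was lower as well. It had 0.302, 0.293 and 0.248 CPM in triple apices, against 1.14, 1.57 and 3.83 CPM in *Mtsoc1a* apices and 2.20, 8.15 and 1.94 CPM in WT apices. The groups did not overlap, but the transcript was weak and *Mtsoc1a* replicate 3 and WT replicate 2 stood well above their partners. The log2 difference was -2.95 from *Mtsoc1a* (SE 0.78, adjusted p = 0.0186) and -3.85 from WT (SE 0.78, adjusted p = 0.00714). Leaving out any of the 3 triple libraries ended the call against *Mtsoc1a*, with an adjusted p of 0.0675 without replicate 1, 0.0689 without replicate 2 and 0.0833 without replicate 3.

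Medtr1g104610 was at the level of *Mtsoc1a* leaves (3.35, 19 and 22.2 CPM) in triple replicates 1 and 2. It had 22.1, 4.45 and 25.9 CPM in triple apices, against 44.1, 69.6 and 103 CPM in *Mtsoc1a* apices and 84.5, 202 and 96.9 CPM in WT apices. Its triple libraries lay under every other apex library, and their mean was 1.18 times that of *Mtsoc1a* leaves. It passed the test against WT (log2 -2.85, SE 0.71, adjusted p = 0.0314) and not against *Mtsoc1a* (log2 -2.05, SE 0.69, adjusted p = 0.0691). The call against WT was lost without triple replicate 1 (adjusted p = 0.08), triple replicate 3 (0.0701) or WT replicate 2 (0.0788).

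The study's list of candidate flowering genes placed 2 members, Medtr4g106860 and Medtr6g007897, in its gibberellin category under the name GRP; gibberellins are hormones that promote stem elongation and, in many plants, flowering. Both were lower in the triple mutant. Medtr4g106860 had 17.4, 15.3 and 19.1 CPM in triple apices, against 54.9, 81.1 and 82.9 CPM in *Mtsoc1a* apices and 42.3, 84.8 and 58.2 CPM in WT apices, with no overlap (log2 -2.08 from *Mtsoc1a*, SE 0.27, adjusted p = 0.000831; log2 -1.83 from WT, adjusted p = 0.00207). It was still 6.07 times the mean of *Mtsoc1a* leaves. Medtr6g007897 had 25.5, 29.7 and 20.4 CPM in triple apices, against 60.1, 70.3 and 52.1 CPM in *Mtsoc1a* apices and 62.7, 47.6 and 66.6 CPM in WT apices, again with no overlap (log2 -1.28 from *Mtsoc1a*, SE 0.17, adjusted p = 0.000352; log2 -1.23 from WT, adjusted p = 0.000681). In *Mtsoc1a* apices against WT apices, the 2 loci differed by log2 0.25 (adjusted p = 0.733) and 0.05 (adjusted p = 0.929).

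A further 7 members carry a gene ontology term in the study's tables, which list loci that differed in these same libraries, so their direction is not independent of that choice. Medtr4g069220, annotated to defence response, had 2.72, 2.34 and 2.48 CPM in triple apices, against 13.1, 18.4 and 14.6 CPM in *Mtsoc1a* apices and 9.21, 11.3 and 15.0 CPM in WT apices. All triple libraries were well under the others (log2 -2.62 from *Mtsoc1a*, SE 0.21, adjusted p = 7.06e-06; log2 -2.23 from WT, adjusted p = 3.73e-05), and no leaf library held a count of it. Medtr2g092950, annotated to mRNA transcription, had 3.47, 5.15 and 2.92 CPM in triple apices, against 8.80, 15.2 and 21.0 CPM in *Mtsoc1a* apices and 15.0, 16.3 and 15.0 CPM in WT apices, without overlap (log2 -1.98 from *Mtsoc1a*, SE 0.31, adjusted p = 0.00133; log2 -2.01 from WT, adjusted p = 0.00172).

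Another 3 of the annotated members concern hydrogen peroxide, a reactive oxygen species that plant cells both make and scavenge. Medtr2g029910 had 10.9, 21.6 and 11.7 CPM in triple apices, against 25.9, 45.5 and 62.7 CPM in *Mtsoc1a* apices and 37.7, 68.8 and 32.1 CPM in WT apices. Its neighbour by identifier, Medtr2g029880, had 9.90, 17.3 and 11.4 CPM in triple apices, against 15.5, 23.1 and 35.8 CPM in *Mtsoc1a* apices and 24.9, 44.9 and 26.6 CPM in WT apices. The triple libraries of Medtr2g029910 lay under all others, and those of Medtr2g029880 overlapped with *Mtsoc1a* and not with WT. The first passed the test against *Mtsoc1a* (log2 -1.62, SE 0.47, adjusted p = 0.0399) and against WT (log2 -1.65, adjusted p = 0.0459). The second passed it against WT only (log2 -1.32, adjusted p = 0.0453), with log2 -0.96 and adjusted p = 0.101 against *Mtsoc1a*. Both lay close to the threshold: Medtr2g029910 lost its call against *Mtsoc1a* without any one of triple replicates 1 and 3 or *Mtsoc1a* replicates 2 and 3 (adjusted p 0.0883 to 0.131) and its call against WT without any one of triple replicates 1 and 3 or WT replicates 1 and 2 (adjusted p 0.0681 to 0.147). Leaving out any library of either group ended the call of Medtr2g029880 against WT (adjusted p 0.0514 to 0.144). Medtr6g043280, annotated to peroxide catabolism, had 28.6, 48.3 and 33.1 CPM in triple apices, against 59.1, 73.6 and 67.3 CPM in *Mtsoc1a* apices and 134, 91.1 and 98.8 CPM in WT apices. Its triple libraries were under all others, at more than 2-fold from WT (log2 -1.56, SE 0.21, adjusted p = 0.00106) and less than 2-fold from *Mtsoc1a* (log2 -0.87, adjusted p = 0.0117).

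The remaining pair, Medtr7g050870 and Medtr7g050980, is annotated to cell wall organization, the building and loosening of the wall around growing cells. Medtr7g050980 had 2.77, 1.17 and 2.03 CPM in triple apices, against 14.3, 16.6 and 72.5 CPM in *Mtsoc1a* apices and 21.2, 195 and 27.5 CPM in WT apices. Medtr7g050870 had 57.8, 32.5 and 42.9 CPM in triple apices, against 90.9, 117 and 329 CPM in *Mtsoc1a* apices and 165, 939 and 195 CPM in WT apices. Neither group overlapped with the triple libraries, yet the spread inside the other groups was wide, and *Mtsoc1a* replicate 3 and WT replicate 2 were the high ones for both. Against WT, the log2 difference of Medtr7g050980 was -5.32 (SE 1.39), at an adjusted p of 0.0373, and that of Medtr7g050870 was -3.27 (SE 0.91), at an adjusted p of 0.0451. Without WT replicate 2 the same differences came to -3.60 (adjusted p = 0.0598) for Medtr7g050980 and -2.02 (adjusted p = 0.0858) for Medtr7g050870, and leaving out any triple library ended both calls as well (adjusted p 0.102 to 0.141). Against *Mtsoc1a* neither passed (log2 -4.10, adjusted p = 0.0652 for Medtr7g050980; log2 -2.02, adjusted p = 0.132 for Medtr7g050870).

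The same libraries stood high for most of the members that were lower in the triple mutant. Of the 14 members lower than in *Mtsoc1a*, *Mtsoc1a* replicate 3 was the highest of its group for 10 and WT replicate 2 the highest of its group for 11. Over all 200 members these counts were 56 and 57, and over all loci tested the shares were 35.3% and 37.1%. With both libraries left out, an alternative chosen after seeing the data, 11 members were higher and 15 lower against *Mtsoc1a*, and 6 were higher and 20 lower against WT. WT replicate 2 was also the WT apex library with the least AP1 and the most TFL1c (9.23 CPM, against 3.19 and 5.13 CPM in its partners), and *Mtsoc1a* replicate 3 had the most TFL1c of its group (13 CPM, against 5.51 and 8.54 CPM). The part of these differences in the results was not tested.

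**Figure D3:**
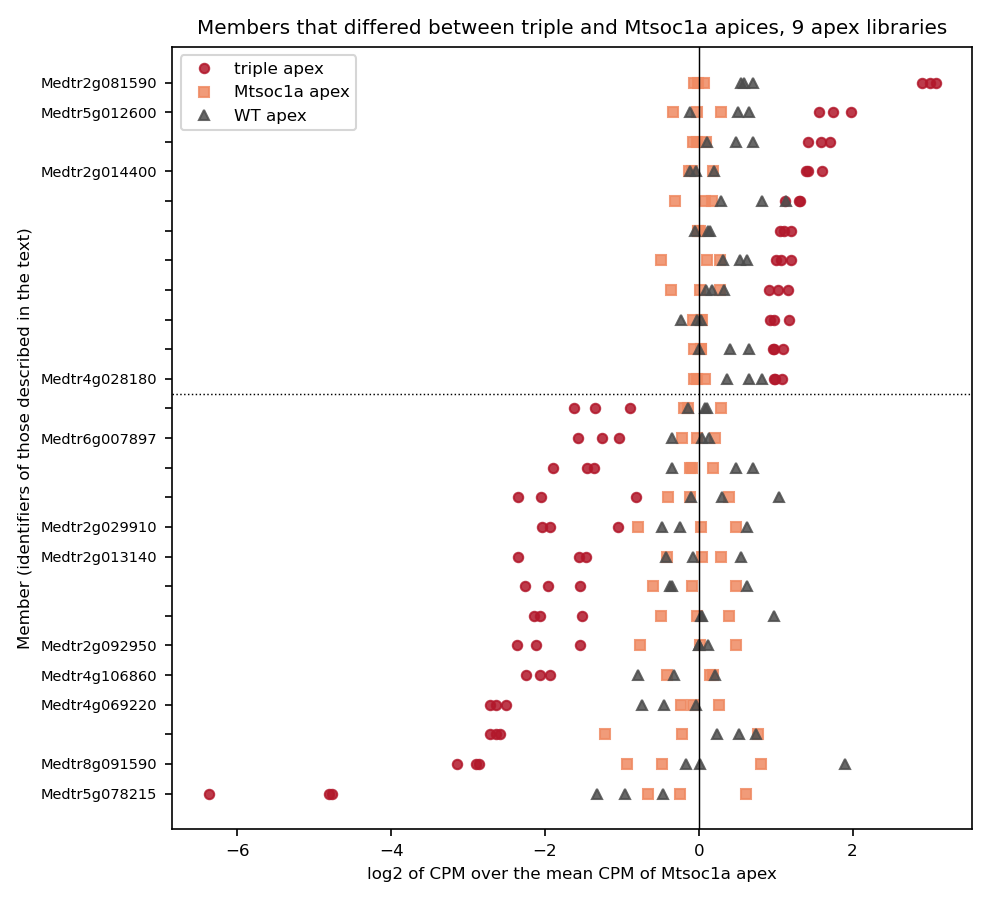
The 25 members that differed between triple and Mtsoc1a apices, in rows ordered by log2 fold change, with the log2 of the CPM in each of 9 apex libraries over the mean CPM of the Mtsoc1a apices. Circles are triple, squares Mtsoc1a and triangles WT apices. The 11 rows above the dotted line were higher and the 14 below it lower in triple apices, and WT apices sit near Mtsoc1a apices in most rows.

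Among the members that were higher in the triple mutant, Medtr2g081590 stood apart. It had 738, 838 and 795 CPM in triple apices, against 104, 98.3 and 95.3 CPM in *Mtsoc1a* apices and 144, 162 and 149 CPM in WT apices. All 9 libraries were ordered by genotype without overlap, with *Mtsoc1a* lowest, WT between and the triple mutant highest. The log2 difference was 2.99 from *Mtsoc1a* (SE 0.09, adjusted p = 2.17e-09) and 2.38 from WT (SE 0.09, adjusted p = 5.31e-08). In the 6 leaf libraries, all of WT or *Mtsoc1a* plants, it was at 0 to 0.247 CPM. Without a triple mutant leaf, whether it stayed confined to the apex in the triple mutant cannot be told.

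Medtr5g012600 had 107, 121 and 143 CPM in triple apices, against 44.3, 35.6 and 28.8 CPM in *Mtsoc1a* apices and 51.7, 33.5 and 56.8 CPM in WT apices. The triple libraries were above all others, and *Mtsoc1a* and WT overlapped (log2 1.76 from *Mtsoc1a*, SE 0.23, adjusted p = 0.000763; log2 1.38 from WT, adjusted p = 0.00311). Medtr2g014400 had 174, 201 and 177 CPM in triple apices, against 75.6, 62.2 and 60.9 CPM in *Mtsoc1a* apices and 61.5, 76.1 and 64.6 CPM in WT apices. Here too the triple libraries stood clear of 2 overlapping groups (log2 1.46 from *Mtsoc1a*, SE 0.11, adjusted p = 6.17e-06; log2 1.45 from WT, adjusted p = 1.4e-05). The other 8 members called higher against *Mtsoc1a* had log2 differences of 1.00 to 1.57. One of them was Medtr4g028180, at rank 4 in the list by the rule, with 91.4, 97.1 and 90.4 CPM in triple apices, 48.5, 44.3 and 45.4 CPM in *Mtsoc1a* apices and 72.7, 59.2 and 81.1 CPM in WT apices (log2 1.00 from *Mtsoc1a*, SE 0.11, adjusted p = 7.12e-05; log2 0.39 from WT, adjusted p = 0.0227). It sat on the 2-fold limit, at log2 0.97 without triple replicate 2 or *Mtsoc1a* replicate 2 and 0.99 without *Mtsoc1a* replicate 3.

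Within a group, most members were steady. The highest library was a median of 1.16 times the lowest in triple apices, 1.22 times in *Mtsoc1a* apices and 1.37 times in WT apices, and it was more than 4 times the lowest for 5, 5 and 6 members of these groups. Medtr7g033475 was the most uneven in WT, with 104, 1150 and 127 CPM in WT apices beside 128, 74.9 and 80.0 CPM in triple apices and 63.1, 70.0 and 235 CPM in *Mtsoc1a* apices. No difference passed the test (log2 -0.39 from *Mtsoc1a*, 95% interval -2.95 to 2.17). Medtr5g013530 was uneven in both mutants, with 21.7, 2.87 and 27.2 CPM in triple apices, 6.48, 2.98 and 33.9 CPM in *Mtsoc1a* apices and 98.2, 57.4 and 83.1 CPM in WT apices. Both mutants lay under WT in every library, and neither passed the test (log2 -2.19 for triple, adjusted p = 0.197; log2 -2.45 for *Mtsoc1a*, adjusted p = 0.431). Its neighbour Medtr5g013520 followed the same order, with 21.0, 3.80 and 21.1 CPM in triple apices, 4.46, 1.57 and 27.7 CPM in *Mtsoc1a* apices and 56.8, 45.7 and 58.7 CPM in WT apices. These loci were chosen for mention after their values were seen.

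**Figure D4:**
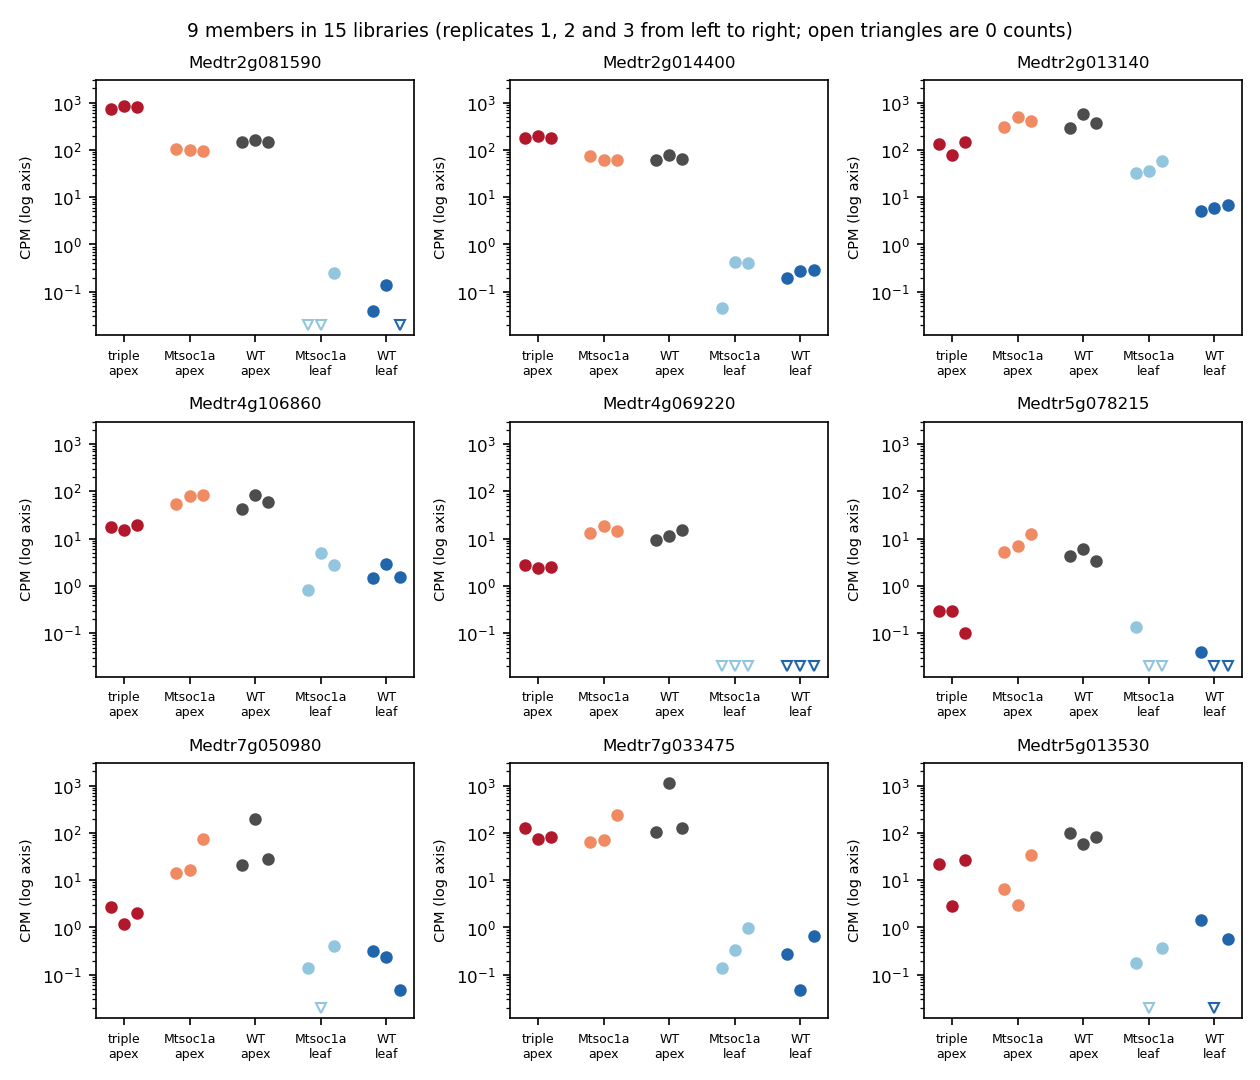
CPM of 9 members in all 15 libraries, on a log axis, with replicates 1, 2 and 3 from left to right in each group and open triangles at 0 counts. Medtr2g081590 and Medtr2g014400 were higher in triple apices. Medtr2g013140, Medtr4g106860, Medtr4g069220 and Medtr5g078215 were lower in triple than in Mtsoc1a apices, and Medtr7g050980, Medtr7g033475 and Medtr5g013530 differed widely between replicates.

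In leaves many of the members were near the floor of the assay, but not all. The highest mean of a member was 54.7 CPM in *Mtsoc1a* leaves and 51.5 CPM in WT leaves. A mean of 1 CPM or more was reached by 85 of the 200 in *Mtsoc1a* leaves and by 77 in WT leaves. For the comparison of these leaves, 114 of the 200 passed the filter on low counts. Of these, 1 was higher and 0 lower in *Mtsoc1a* leaves, where 0.193% of 19706 loci were higher and 0.0457% lower. The median log2 difference was 0.20 over those 114 and 0.00 over all loci tested, and since the WT leaf chose the members for being low, a positive value is the side on which that choice places them. An unadjusted p under 0.05 was found for 17 higher and 1 lower, where 1111 of all loci tested were higher and 1006 lower. DESeq2 called 5 higher and 1 lower, and 1.16% of all loci in either direction. With the replicate number as a block, which pairs the leaf samples, 5 were higher and 0 lower, and the share of all loci called in either direction was 1.3%, against 0.239% without the block.

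The member called in leaves was Medtr2g013140. It had 33.1, 36.1 and 59.5 CPM in *Mtsoc1a* leaves, against 5.06, 5.86 and 6.76 CPM in WT leaves, without overlap (log2 2.89, SE 0.26, adjusted p = 0.0054). In the apex it had 135, 77.9 and 144 CPM in triple, 299.5, 485 and 408 CPM in *Mtsoc1a* and 297, 584 and 376 CPM in WT libraries. *Mtsoc1a* and WT apices overlapped (log2 -0.06, adjusted p = 0.959), and the triple libraries lay under both (log2 -1.75 from *Mtsoc1a*, SE 0.34, adjusted p = 0.00732; log2 -1.81 from WT, adjusted p = 0.00827). The mean in triple apices was 2.77 times that in *Mtsoc1a* leaves. Over the 12 libraries of 15-day-old plants, the effect of *Mtsoc1a* differed between leaf and apex for 2 members, of which this is one and Medtr4g064967 the other, where 0.0608% of 23024 loci did.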

How the data were processed

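The authors trimmed strand-specific, polyA-selected paired-end reads with fastp, quantified them with Salmon 0.8.2 against the Mt4.0 transcripts, which are models of the accession A17 and not of R108, and imported them with tximport; they used DESeq2 1.24.0 for their own tests, which are not used here. They deposited estimated counts for 57124 transcripts in 15 libraries and, as a separate table, one TPM value per transcript and group. Here the estimated counts were summed to 50021 loci (the identifier before its last dot) and rounded to whole numbers. Fractions occurred in 1 column only (9856 values). The deposited TPM were used for the choice of members and for levels between loci, with no SD since they hold 1 value per group. CPM are counts scaled by the library total and by TMM factors over all 15 libraries.

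Differences were tested with edgeR 4.0.16 (quasi-likelihood fit, filterByExpr with a minimum count of 10, TMM) in R 4.3.3, with Benjamini-Hochberg adjustment over all loci tested; a call needed an adjusted p of at most 0.05 and 2-fold. One fit over 9 apex libraries served the apex comparisons, one over 12 libraries of 15-day-old plants the apex and leaf comparison, and one over 6 libraries the leaf comparison. The median of all loci lay within 0.10 of 0 on the log2 scale in each. DESeq2 1.42.0, other scalings, filters, transcripts, sample sets, the replicate block and leaving out each library were alternatives. On simulated counts, the edgeR step for triple against *Mtsoc1a* apices over 22555 loci recovered 46 of 100 loci changed 2-fold and 97 of 100 changed 4-fold. A locus changed by exactly 2-fold sits on the fold limit of a call, so the first count is no measure of detection. The changed loci were drawn from well-counted ones only, so neither count covers weak members. Figures were drawn with matplotlib 3.10.9.

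Same-numbered samples deviated together in the leaf comparison (r across loci of 0.438, 0.496 and 0.127), so the numbers were taken to pair those samples; in each of the other comparisons at least one r was below 0.1. Replicates are pools of different plants, and p-values measure the spread between these pools. The members and gene lists were chosen with earlier results of these data known. Named members were taken from those with the lowest ratio, the highest TPM, the largest fold changes without overlap, and those in the study's lists. Not all loci that this rule allows are named. As the reference table matched 0 identifiers, product-name families could not be formed, and no member is named by family. The GO-annotated loci were added after their values were seen.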

Additional observations from a re-analysis of the deposited data

Results flagged for a closer look

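In the list, 2 members showed an effect of *Mtsoc1a* that differed between leaf and apex, by an interaction term fitted over the 12 libraries of 15-day-old plants; this term was past the threshold for 14 of 23024 loci. For Medtr2g013140 the effect in leaf exceeded that in apex by 2.98 on the log2 scale (SE 0.40, edgeR adjusted p = 0.0259), with 33.1, 36.1 and 59.5 CPM in *Mtsoc1a* leaves, against 5.06, 5.86 and 6.76 CPM in WT leaves, and overlapping apices. For Medtr4g064967 the difference of effects was 1.62 (SE 0.25, adjusted p = 0.0436). It had 10.1, 12.5 and 10.2 CPM in *Mtsoc1a* leaves, against 4.03, 5.53 and 4.10 CPM in WT leaves, and 227, 236 and 216 CPM in *Mtsoc1a* apices, against 284, 225 and 333 CPM in WT apices. The leaf libraries were higher in 3 of 3 *Mtsoc1a* samples for both loci. An unadjusted p under 0.05 for this term was found for 48 of the 200 members and for 8.8% of the 23024 loci. The WT leaf and WT apex libraries that chose the members are part of the term. Groups of 3 libraries were too small for a test of single outlying samples.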

How the results depend on the processing

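Against *Mtsoc1a* apices, leaving out each library in turn gave 8 to 13 members higher, 11 to 17 lower and a median log2 difference of 0.28 to 0.33 for the triple mutant, and against WT apices 5 to 7 higher, 13 to 19 lower and a median of -0.026 to 0.13; this last median turned negative without WT apex replicate 2 (-0.026), and was -0.026 without that library and *Mtsoc1a* apex replicate 3. Without the 2-fold limit, 83 members were higher and 27 lower than in *Mtsoc1a* apices, and 57 higher and 32 lower than in WT apices; in *Mtsoc1a* apices against WT apices it gave 2 lower. In that last comparison, the median ran between -0.23 and -0.10 over the libraries left out, with -0.10 without WT apex replicate 3, and 2 members were lower without WT apex replicate 2 and *Mtsoc1a* apex replicate 3. The list chosen with 0.1 TPM had medians of 0.22 (triple against *Mtsoc1a*), -0.051 (triple against WT), -0.14 with 1 member lower (*Mtsoc1a* against WT) and 7.36 (*Mtsoc1a* apex against leaf). For apex against leaf of *Mtsoc1a*, the median was 6.01 with DESeq2's size factors, 5.998 with DESeq2, 6.02 in one fit over 15 libraries, 5.94 over only the 6 libraries compared and 5.84 to 6.55 over the libraries left out. For *Mtsoc1a* leaves against WT leaves, 5 members were higher and 1 lower with DESeq2, 2 higher with no filter on low counts, 10 higher and 4 lower in one fit over 15 libraries, and 1 to 2 higher over the libraries left out, with 2 without *Mtsoc1a* leaf replicate 1. The cause of these shifts was not tested.

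With the replicate number as a block, which pairs samples only in the leaf comparison, 5 members were higher in *Mtsoc1a* leaves. The block gave 11 higher and 16 lower for triple against *Mtsoc1a* apices, 7 higher and 16 lower for triple against WT apices, 0 called for *Mtsoc1a* against WT apices, and a median of 5.997 for apex against leaf of *Mtsoc1a*.

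The summed level in triple apices was 1.23 times that in *Mtsoc1a* apices, and 1.13 times when scaled by the raw total. Against WT apices it was 0.993 times, 0.933 times by the raw total, 1.06 times as the median over members, 1.03 times without the 5 members with the most counts and 0.936 to 1.07 times over the libraries left out, so its direction was not fixed. *Mtsoc1a* over WT apices was 0.807, 0.876 as the median over members and 0.761 to 0.870 over the libraries left out.

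Of 30 calls on single members, 22 passed under all their alternatives and none reversed. Dropping the fold limit was among the alternatives of each call and could not end a call that had passed both limits. The other 8 calls failed the limits in 48 of the 446 alternatives run for all 30. They were Medtr7g050870, Medtr7g050980, Medtr2g029880, Medtr2g029910 and Medtr1g104610 against WT apices (adjusted p up to 0.141, 0.124, 0.144, 0.147 and 0.0904), Medtr2g029910 and Medtr8g091590 against *Mtsoc1a* apices (up to 0.131 and 0.0833), and Medtr4g028180 against *Mtsoc1a* apices, which fell under 2-fold (log2 0.97 at the lowest). DESeq2 gave no adjusted p for Medtr7g050980 against WT apices, so it did not call this member, and that alternative was left out of these counts. The lower depth of the triple libraries limits members near 1 CPM or under.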
